A study of Nannochloropsis oceanica with 8 samples.

Results

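Among 6185 ChIP-seq peaks of the oil-storing marine alga *Nannochloropsis oceanica*, 66 peaks lie less than 300 bp from a neighbouring peak, measured from the end of the earlier peak to the start of the later one. They were taken by position alone, with peaks sorted along each chromosome, and they form 35 neighbouring pairs out of 6155 adjacent pairs (0.569%). The cells were strain IMET1, a unicellular line grown in column reactors under continuous light. After 1 hour at 5% CO2 the cultures either stayed at 5% CO2 (high CO2) or were switched to air at 0.04% CO2 (low CO2), and cells were taken at 24 h. Chromatin was precipitated with an antibody against H3K9me2 or with one labelled Kbu, and each mark at each CO2 level has 2 libraries, 8 in all. The labels speak of 3 cultures for each CO2 level without saying which culture gave which library, so every p-value rests on the spread between libraries, which may be technical. They also give a different antibody lot for each H3K9me2 library, so for that mark lot and CO2 level cannot be told apart.

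H3K9me2 is dimethylation of lysine 9 of histone H3, which in many eukaryotes is bound by repressor proteins and marks silent chromatin and repeats. Kbu usually stands for butyryl-lysine, in which a short acyl group taken from butyryl-coenzyme A removes the positive charge of lysine. On mammalian histones it is found at active promoters. In many genomes blocks of repressive and active marks meet at boundaries over a short distance, so neighbouring peaks show how far both marks can differ between adjacent stretches of chromatin. The deposited tables name no genes, and the sources used here name no genome build, so peaks are given by the chromosome, start and end the authors deposited.

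Close neighbours came mostly in twos. The 66 peaks form 31 groups, 27 of 2 peaks and 4 of 3 peaks. The smallest gap is 12 bp, between peak5181 (chromosome 6, 370598 to 371169) and peak5182 (371181 to 372258). The next, 43 bp, separates peak3213 (chromosome 23, 18456 to 19205) from peak3214 (19248 to 19967). The median gap of the 35 pairs is 185 bp, and that of all adjacent pairs is 3127 bp (quartiles 1852 and 4993 bp). Gaps under 300 bp are at the sparse end of the distribution, with 9 pairs under 100 bp, 10 from 100 bp to below 200 bp and 16 from there to below 300 bp, followed by 32 from 300 bp to below 400 bp. The closely spaced peaks lie on 20 of the 30 chromosomes, with at most 6 on 1 chromosome (chromosomes 1 and 4), and none lies on chromosomes 3 and 5, which carry 338 and 324 peaks. Of the 66, 16 (24.2%) are within 50 kb of the outermost peak of their chromosome, against 8.07% of the other 6119 peaks. The sources used here do not say how peaks were called and merged across libraries, on which their number and spacing depend.

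Closely spaced peaks were narrower than the rest. Their median width was 679 bp (quartiles 573 and 1038 bp), against 1033 bp for the other peaks (quartiles 766 and 1170 bp) and 945 bp for the 723 other peaks whose nearest gap lies between 300 and 1000 bp. Peaks under 500 bp made up 14 of the 66 (21.2%) and 4.20% of the others. Widths of 1500 bp or more were about as frequent, at 4 of 66 (6.06%) and 4.04%. Within a pair the widths differed by a median of 267 bp, close to the 274 bp over all adjacent pairs, and their median ratio was 1.54, against 1.34. Widths are a single set for all libraries, so they carry no replicate error and were not tested.

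At high CO2 the closely spaced peaks carried less Kbu than other peaks, and at low CO2 they carried more H3K9me2. Levels are the ChIP pileup divided by the genome background, for which the smallest control value in a library stands. The median Kbu level of the 66 peaks was 2.22 and 2.23 times background in the high-CO2 libraries and 2.18 and 2.24 in the low-CO2 libraries. The other peaks stood at 3.71 and 3.72 at high CO2, then 2.54 and 2.63 at low CO2, so both Kbu libraries at high CO2 show a wide gap and those at low CO2 a small one. The member-over-other difference on the log2 scale was -0.74 ± 0.0016 under high and -0.23 ± 0.0097 under low CO2 (SD, n = 2 each). The closely spaced peaks are narrower, and among peaks of 500 to 1000 bp the high- and low-CO2 differences were -0.39 and 0.020, and among wider ones -0.33 and -0.16. Over the control at the peak it was -0.79 and 0.43, so the sign of the low-CO2 difference depends on width and scale. On that scale the median Kbu level at low CO2 was 0.99 ± 0.046 at the 66 peaks and 0.73 ± 0.021 at the others (SD, n = 2 each). A level above genome background can thus lie below the control at the peak.

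H3K9me2 showed the other order. Its median at the 66 peaks was 1.37 and 1.54 at high CO2, then 2.26 and 2.23 at low CO2, against 1.35 and 1.44, then 1.50 and 1.65, at the other peaks. The closely spaced peaks were thus level with the rest at high CO2, by 0.06 ± 0.049 on the log2 scale, and above them at low CO2, by 0.52 ± 0.11 (SD, n = 2 each). For each mark the libraries of both CO2 levels did not overlap in this difference, and the exact two-sided permutation test gave p = 0.33, the smallest that 2 libraries against 2 allow. For H3K9me2 the pileup at the median closely spaced peak was worth 54 and 31 reads at high CO2 and 104 and 51.5 reads at low CO2. For Kbu it was worth 489 and 355.5 reads, then 144 and 90. H3K9me2 at high CO2 thus rests on the fewest reads. Over the control at the peak, median H3K9me2 at the 66 peaks was 1.05 ± 0.13 at high and 0.85 ± 0.0041 at low CO2. The other peaks stood at 1.11 ± 0.092 and 0.45 ± 0.029 (SD, n = 2 each), so at low CO2 both medians lay below the control.

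**Figure D1:**
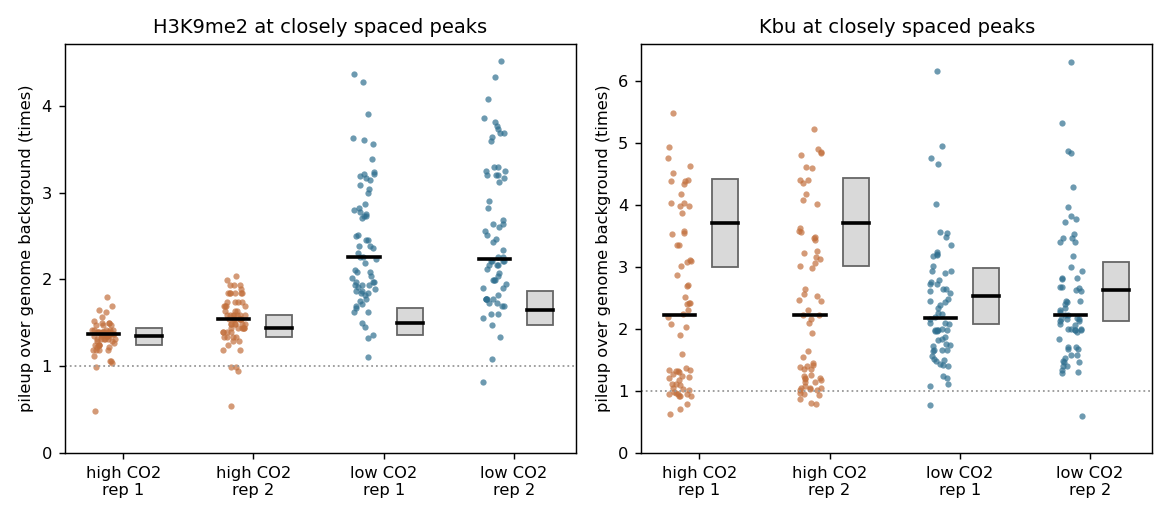
Level of H3K9me2 (left) and Kbu (right) at the 66 closely spaced peaks in each of the 8 libraries, as ChIP pileup over genome background (vertical axis, times, linear). Each dot is 1 peak with a bar at the median, the grey box beside it spans the quartiles of the 6119 other peaks with their median, and the dotted line marks the background. Kbu dots at high CO2 form a low band near 1 and a broad upper range, and H3K9me2 dots move up at low CO2, to medians of 2.26 and 2.23.

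Counting peaks rather than taking medians gave the same picture. A Kbu level of at least 2 times background in both libraries was found at 36 of the 66 peaks (54.5%) at high CO2 and again at 36 at low CO2, against 93.1% and 75.5% of the other peaks. For H3K9me2 the count went from 0 of 66 at high CO2 to 36 at low CO2 (54.5%), and in the other peaks from 10 (0.163%) to 281 (4.59%).

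In most close pairs a peak poor in Kbu at high CO2 sat beside a peak rich in it. The poorer peak of the 35 pairs had a median Kbu level of 1.14 times background at high CO2, and its neighbour 3.40. In 22 of the 35 pairs (62.9%) both peaks were at least 2-fold apart, and over all adjacent pairs this held for 12.8%. At high CO2 the Kbu libraries gave median absolute log2 differences of 1.50 and 1.46, against 0.40 in each for all adjacent pairs. Each library put the poorer peak lower in 35 of 35 pairs, and in 96.7% and 96.3% of all adjacent pairs. The mean of the same 2 libraries sets the poorer peak, so this count is a description. Pairs 300 to 1000 bp apart were close to the bulk, with a median difference of 0.46 and 17.3% at least 2-fold apart. The strongest contrast was at peak577 (chromosome 10, 1228384 to 1228796) and peak578 (1228981 to 1229892), 185 bp apart, which differed 6.27-fold, from 0.71 to 4.47 times background. This pair was chosen after its values were seen.

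At low CO2 the contrast in Kbu was like that of other neighbours. The median absolute log2 difference in close pairs was 0.47 and 0.43 in the low-CO2 libraries, against 0.40 and 0.39 for all adjacent pairs. At least 2-fold differences were found in 3 of 35 pairs (8.57%), and over all adjacent pairs in 11.5%. The peak poorer in Kbu at high CO2 was still the lower in 24 and 25 of the 35 pairs (68.6% and 71.4%), and over all adjacent pairs in 75.1% and 74.4%.

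**Figure D2:**
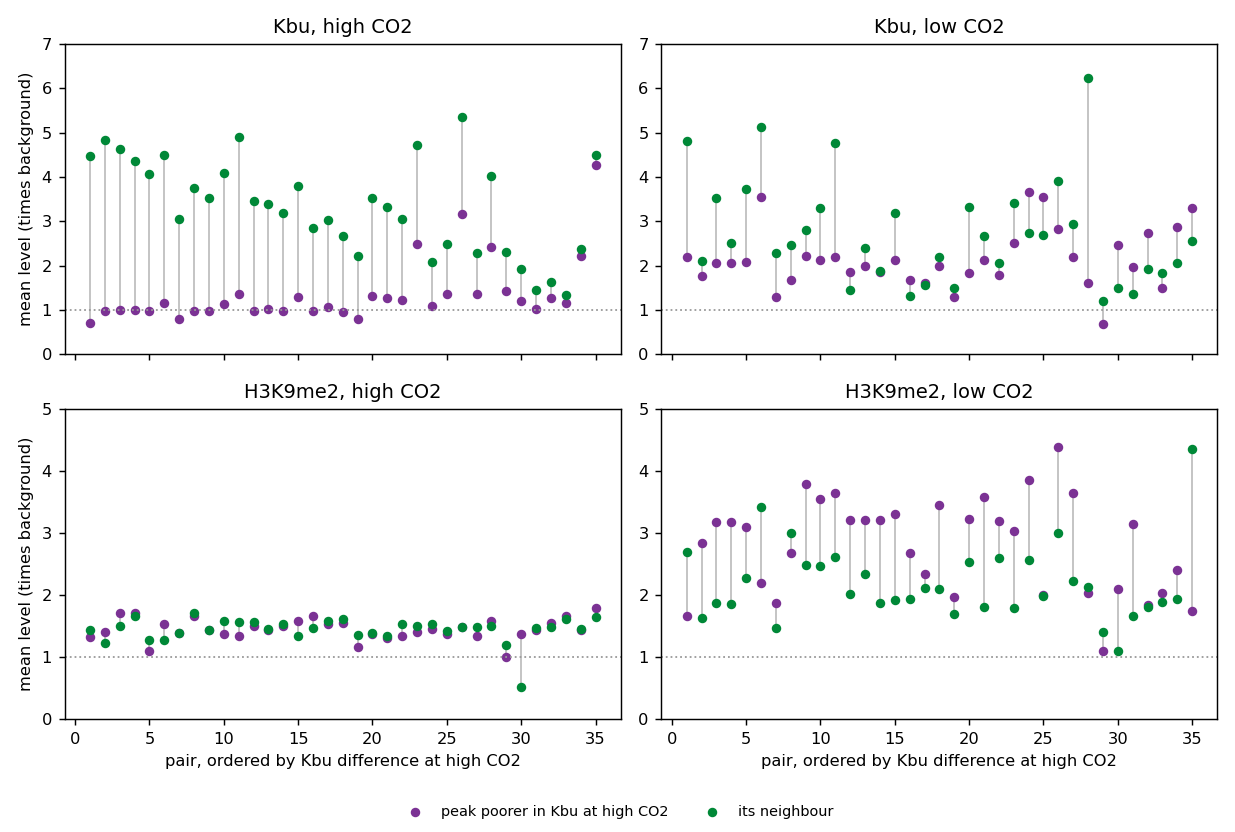
Mean level over 2 libraries (vertical axis, times genome background) of both peaks in each of the 35 close pairs, ordered from left to right by the fold difference in Kbu at high CO2. The top panels show Kbu and the bottom panels H3K9me2, at high CO2 (left) and low CO2 (right), and a grey line joins the peaks of a pair. Purple dots, the peaks poorer in Kbu at high CO2, cluster near 1 in the top left panel (median 1.14) and lie above their neighbours for H3K9me2 at low CO2 in most pairs.

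**Figure D3:**
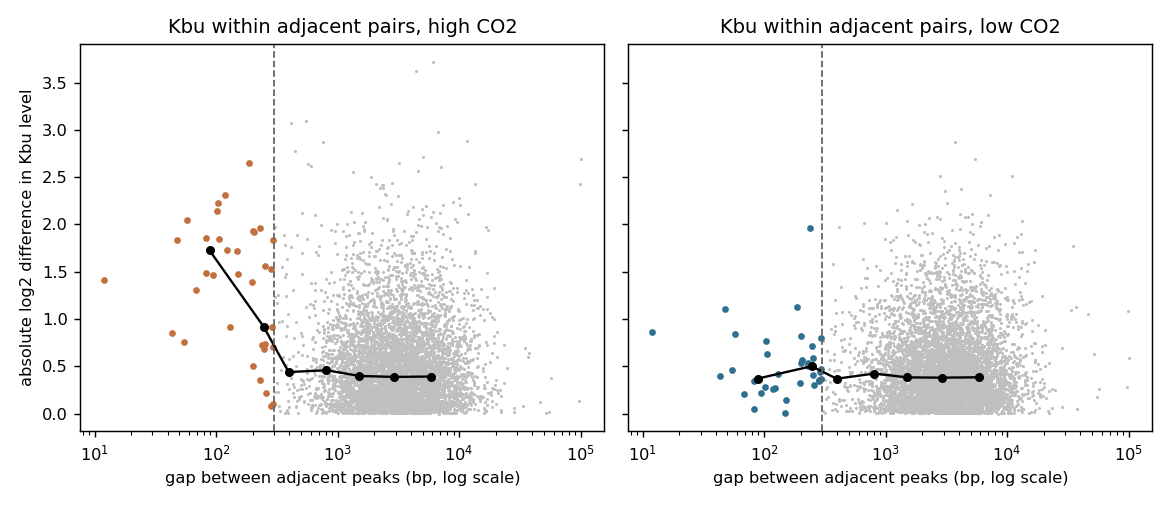
Absolute log2 difference in Kbu level between adjacent peaks (vertical axis) against the gap between them (horizontal axis, bp, log scale), at high CO2 (left) and low CO2 (right). Coloured dots are the 35 pairs under 300 bp (dashed line), grey dots the other adjacent pairs, and the black line joins the medians of gap classes. At high CO2 the medians are 1.72 below 150 bp, 0.92 from 150 bp to 300 bp and 0.44 from 300 to 500 bp, and at low CO2 all classes lie between 0.37 and 0.50.

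H3K9me2 rose at low CO2 at many of the closely spaced peaks. On the pileup, with libraries scaled to 1 geometric mean, 32 of 66 peaks (48.5%) were called higher, and over all 6185 peaks 3.99% were (limma, Benjamini-Hochberg adjusted p under 0.05 over all peaks, n = 2 per group). No closely spaced peak was called lower, nor was one lower at an unadjusted p under 0.05, against 1.03% called lower over all peaks. The median log2 change was 0.44 (quartiles 0.17 and 0.81), and -0.02 over all peaks, and 61 of the 66 changes were above 0. Log2 changes given for named peaks are on this scaled pileup, and are thus relative to the bulk of the peaks. They do not equal the fold between the levels over genome background. The calls were spread over 23 of the 31 groups and 16 chromosomes. With any 1 library left out, 22 to 28 of the 66 peaks were called higher, while 2.30% to 2.55% of all peaks were. Read against the genome background instead of the bulk of the peaks, 34 were higher (51.5%) and 0 lower, with 4.8% higher over all peaks.

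Both peaks of a pair gained H3K9me2 in 9 of 35 close pairs, 1 peak did in 18, and neither did in 8. Over all adjacent pairs the shares were 0.325%, 7.12% and 90.6%, the last counting pairs with no call in either direction. The pair with the largest joint gain was peak34 (chromosome 1, 211142 to 212680) and peak35 (212734 to 213653), 54 bp apart. Peak34 read 1.47 and 1.49 times background at high CO2, then 4.27 and 4.51 at low CO2, the highest mean H3K9me2 level at low CO2 among the 66. On the log2 scale it rose by 1.32 (SE 0.15, limma adjusted p = 1.7e-14). Peak35 went from 1.37 and 1.59 to 2.71 and 3.29, a log2 change of 0.78 (limma adjusted p = 1.3e-05). The high- and low-CO2 libraries did not overlap at either peak. Kbu at the same pair was 3.16 ± 0.11 and 5.35 ± 0.19 at high CO2 and 2.83 ± 0.25 and 3.9 ± 0.17 in the low-CO2 libraries (SD, n = 2 each).

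At the closest pair, H3K9me2 at peak5181 went from 1.19 and 1.54 to 3.19 and 3.25, and at peak5182 from 1.35 and 1.44 to 2.52 and 2.56. Both rose, by 1.00 and 0.63 on the log2 scale (limma adjusted p = 4.5e-09 and 0.00096). At peak1475 (chromosome 14, 999916 to 1000533) and peak1476 (1000591 to 1000991) the gains were 0.61 and 1.24, and at peak3663 (chromosome 26, 291185 to 292539) and peak3664 (292622 to 293389) they were 1.15 and 0.56. In both pairs the larger H3K9me2 gain lay at the peak poorer in Kbu, peak1476 with 0.98 ± 0.061 and peak3663 with 0.97 ± 0.070 times background at high CO2 (SD, n = 2 each).

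The H3K9me2 gain fell mainly on the Kbu-poor side of a pair. When the poorer peak was set from Kbu high-CO2 replicate 1 alone, H3K9me2 was higher at that peak in 15 and 16 of 35 pairs in the high-CO2 libraries, and in 29 and 28 in the low-CO2 libraries. Over all adjacent pairs the shares were 40.7% and 40.1% at high CO2, then 40% and 38.9% at low CO2. The median log2 ratio of H3K9me2, poorer over richer peak, went from -0.01 ± 0.018 to 0.49 ± 0.016 (SD, n = 2 each). These libraries did not overlap, and the exact two-sided permutation test gave p = 0.33, the smallest possible. The H3K9me2 change was larger at the poorer peak in 27 of the 35 pairs (77.1%), against 46.8% of all adjacent pairs and 45.8% of the 371 pairs 300 to 1000 bp apart. Of the 35 poorer peaks 24 were called higher, and of the 35 richer ones 12, against 3.64% and 4.16% over all adjacent pairs. A peak in a group of 3 enters 2 pairs, so these counts are over pairs.

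Kbu rose at low CO2, against the bulk of all peaks, at most of the closely spaced peaks. The scaled pileup was called higher at 43 of 66 (65.2%) and lower at 9 (13.6%), and over all peaks 21.8% were higher and 25.2% lower (limma, adjusted p under 0.05, n = 2 per group). The median log2 change was 0.60 (quartiles 0.09 and 1.20), against -0.03 over all peaks. Because Kbu fell over genome background at most peaks, part of these calls are peaks that fell less than the bulk. Over genome background 31 of the 66 were higher (47%) and 25 lower (37.9%), with 3.69% of all peaks higher and 84% lower, and all 31 were also among the 43. The lowest share of peaks called higher on the scaled pileup with 1 library left out was 39 of 66, without high-CO2 replicate 1, and then 12.7% of all peaks were called higher.

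Relative to the bulk, gains in Kbu were more frequent at the poorer than at the richer peak of the pair. Of the 35 poorer peaks 32 were called higher and 1 lower, and of the richer ones 15 higher and 8 lower. Over all adjacent pairs 29.1% of poorer and 14.3% of richer peaks were called higher, so the poorer side was called higher more often there too. The high-CO2 level chose the poorer peak, so these counts are a description. With the poorer peak set from high-CO2 replicate 1 and the change measured from replicate 2, the median log2 change was 1.22 at the poorer and 0.16 at the richer peaks, and it was larger at the poorer peak in 32 of 35 pairs (91.4%, and 62.5% of all adjacent pairs).

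On the scaled pileup, relative to the bulk, both peaks were called higher in Kbu in 14 of the 35 pairs, against 5.10% of all adjacent pairs. In some of these pairs a peak had a lower mean level over genome background at low CO2, as peak280 did beside peak281. The largest joint gain was at peak838 (chromosome 12, 134665 to 135464) and peak839 (135595 to 136619). Kbu at peak838 was 2.04 and 2.11 times background at high CO2, then 2.80 and 2.68 at low CO2. At peak839 it was 1.04 and 1.15, then 3.02 and 4.30. Relative to the bulk, the log2 pileup of peak839 rose by 2.15 (SE 0.13, limma adjusted p = 1.5e-06). The low-CO2 libraries lay above the high-CO2 libraries at both peaks, with a wide spread at peak839. H3K9me2 rose at both as well, by 0.51 and 1.16 (limma adjusted p = 0.016 and 9.4e-12). On the authors' ratio of pileup to control H3K9me2 was called higher at peak839 but not at peak838 (limma adjusted p = 0.64). At low CO2 the mean H3K9me2 level of peak838 was 2.56 times background, below the control there at 4.76.

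Other joint Kbu gains came without called H3K9me2 gains. At peak3883 (chromosome 28, 269635 to 270687) and peak3884 (270947 to 272333) Kbu was near background at high CO2, at 1.12 and 1.18 and at 1.33 and 1.36, and reached 1.48 and 1.49 and 1.66 and 2.01 at low CO2. The log2 changes were 0.83 and 0.92 relative to the bulk, while H3K9me2 changed by 0.08 and 0.03 (limma adjusted p = 0.88 and 0.96). At peak8 (chromosome 1, 89446 to 89973) and peak9 (90203 to 90783) Kbu changed by 0.72 and 1.55, with H3K9me2 changes of 0.12 and 0.05 (limma adjusted p = 0.79 and 0.93). In the pair 43 bp apart, Kbu at peak3214 went from 1.33 and 1.41 to 3.25 and 3.83 while peak3213 went from 2.42 and 2.53 to 2.72 and 2.66. Peak3214, the lower of both at high CO2, was thus the higher at low CO2.

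The exception among the pairs was peak348 (chromosome 10, 15688 to 16155) with peak349 (16447 to 16804), the single pair in which both peaks were called lower in Kbu relative to the bulk. Over genome background both peaks were called lower in this pair and in peak1077 with peak1078, 2 of the 35, and in 71.1% of all adjacent pairs. Peak348 went from 2.32 and 2.31 to 1.09 and 1.32, and peak349 from 1.38 and 1.46 to 0.786 and 0.596. The log2 changes were -0.43 and -0.51 (limma adjusted p = 0.0077 and 0.019). Their mean H3K9me2 level was low throughout, at 1.20 and 1.01 times background at high CO2, then 1.40 and 1.10 at low CO2, and its change was not called (limma adjusted p = 0.95 and 0.89).

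The balance between neighbours was tested directly, as the difference in log2 pileup between the later and the earlier peak, in which any scaling of a library largely cancels. For Kbu it changed between CO2 levels in 31 of the 35 close pairs (88.6%), and in 46.9% of all adjacent pairs (limma, adjusted p under 0.05 over all adjacent pairs, n = 2 per group). In 30 of the 31 the shift favoured the peak poorer in Kbu at high CO2, against 71.7% of the called shifts over all adjacent pairs. The same high-CO2 levels choose the poorer peak and enter the shift, so this direction is a description. The median absolute change of balance was 1.18 on the log2 scale, against 0.28 over all adjacent pairs. For H3K9me2 it changed in 12 of 35 pairs (34.3%), and in 3.96% of all adjacent pairs, and 10 of the 12 favoured the Kbu-poor peak, against 47.5% of the called shifts over all adjacent pairs. With either low-CO2 H3K9me2 library left out, 0 of the 35 pairs passed (limma, 18 and 19 pairs at an unadjusted p under 0.05), and 3 and 0 passed among all adjacent pairs. With either high-CO2 library left out 4 passed.

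The largest shift of H3K9me2 balance was between peak1077 (chromosome 13, 72464 to 74097) and peak1078 (74378 to 75642), 281 bp apart. Peak1077 read 1.80 and 1.49 times background at high CO2, then 4.36 and 4.33 at low CO2, while peak1078 read 1.65 and 1.94, then 1.71 and 1.78. H3K9me2 thus rose on one side of the gap and overlapped between CO2 levels on the other, and the balance changed by -1.39 (SE 0.20, limma adjusted p = 1.5e-06). Of the 35 pairs, this pair had the highest smaller Kbu level at high CO2. The levels were 4.49 ± 0.14 and 4.27 ± 0.13 (SD, n = 2 each). On the scaled pileup, relative to the bulk, peak1077 fell in Kbu by 0.30 (limma adjusted p = 0.0064). On that scale peak1077 was the single closely spaced peak called with an H3K9me2 gain and a Kbu loss. Over genome background, some other peaks with an H3K9me2 gain had a lower mean Kbu level at low CO2, such as peak35 and peak3961.

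The next shifts were between peak1242 (chromosome 13, 834850 to 835477) and peak1243 (835674 to 836353), by -0.99, and between peak1904 (chromosome 17, 161941 to 162984) and peak1905 (163186 to 163533), by -0.93 (limma adjusted p = 0.00068 and 0.0014). Peak1242 and peak1904 gained both marks. At peak1242 H3K9me2 went from 1.22 and 1.39 to 3.38 and 3.77 and Kbu from 1.28 and 1.26 to 2.09 and 2.19. At its neighbour peak1243 H3K9me2 went from 1.50 and 1.19 to 1.91 and 1.69.

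For Kbu the largest shifts joined a loss and a gain. Peak1472 (chromosome 14, 982163 to 982842) went from 0.918 and 1.04 to 1.83 and 1.69 times background, while peak1473 (982961 to 984435), 119 bp away, went from 4.76 and 4.91 to 2.19 and 2.01. The peaks differed 4.95-fold at high CO2 and 1.19-fold at low CO2, a change of balance of -1.98 (SE 0.13, limma adjusted p = 2.7e-07). The largest shift, 2.12, was between peak2966 and peak2967 and is described with its group of 3, as is the shift of -1.80 between peak3962 and peak3963. Opposite Kbu calls within a pair were found in 6 of 35 close pairs (17.1%) and in 10.5% of all adjacent pairs.

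Levels of neighbours were related differently for each mark and CO2 level. Across the 35 pairs, with each pair entered in both orders, the correlation of log2 Kbu levels was -0.53 at high CO2 (Spearman -0.51) and 0.32 at low CO2 (0.37). For pairs 300 to 1000 bp apart it was 0.15 and 0.28, and for pairs 1000 bp or more apart 0.01 and 0.03. The log2 changes of Kbu correlated at -0.40 in close pairs and at 0.16 and 0.03 in the classes of larger gap, and those of H3K9me2 at -0.14, 0.28 and 0.05. These values are descriptions across pairs, which share libraries and in part peaks.

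H3K9me2 and Kbu, the latter relative to the bulk, rose together at 26 of the 66 peaks (39.4%) on the scaled pileup, and at 2.78% of all peaks. Some of these were not higher in Kbu over genome background, such as peak34. Over genome background 20 of the 66 (30.3%) were higher in both marks, all of them among the 26, and 1.5% of all peaks were. On the scaled pileup a further 5 (7.58%) gained H3K9me2 without a Kbu call, against 1.00% of all peaks, and 9 were called in neither mark, against 51.5%. Kbu gains without an H3K9me2 call were found at 17 (25.8%), not far from the 18.9% of all peaks. Kbu losses without an H3K9me2 call were found at 8 (12.1%), against 24.6% of all peaks. On the scaled pileup only peak1077 combined an H3K9me2 gain with a Kbu loss.

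Close spacing overlaps with low Kbu at high CO2, and the values were therefore also read within classes of that level, set after the data were seen. A mean Kbu level under 1.5 times background at high CO2 was found at 28 of the 66 closely spaced peaks (42.4%) and at 101 of the others (1.65%). Rises counted here are calls on the scaled pileup, relative to the bulk of the peaks. Some peaks counted as a Kbu rise, such as peak34, had a lower mean level over genome background at low CO2. In this class H3K9me2 rose at 17 of 28 (60.7%) and at 20 of 101 (19.8%), and Kbu rose at 27 of 28 and at 82 of 101 (81.2%). In the class of 3 times background or more H3K9me2 rose at 12 of 25 closely spaced peaks (48%) and at 3.42% of 4619 others, and Kbu at 9 of 25 (36%) and 14.6%. In the class between, H3K9me2 rose at 3 of 13 and 2.64% of 1399, and Kbu at 7 of 13 and 39.4%. The high-CO2 Kbu level sets the class and enters the Kbu change, so the Kbu shares are a description. These shares were not tested between closely spaced and other peaks.

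The share of peaks with an H3K9me2 gain was graded with the gap. It was 67.7% of 31 peaks with a nearest gap under 150 bp, 31.4% of 35 peaks from 150 bp to 300 bp, 10.9% of 119 peaks from 300 to 500 bp and 4.97% of 604 peaks from 500 to 1000 bp. For Kbu gains relative to the bulk the shares were 67.7%, 62.9%, 37% and 24.5%. Kbu losses went the other way, from 12.9% under 150 bp to 32.8% of the 838 peaks at 4000 bp or more.

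**Figure D4:**
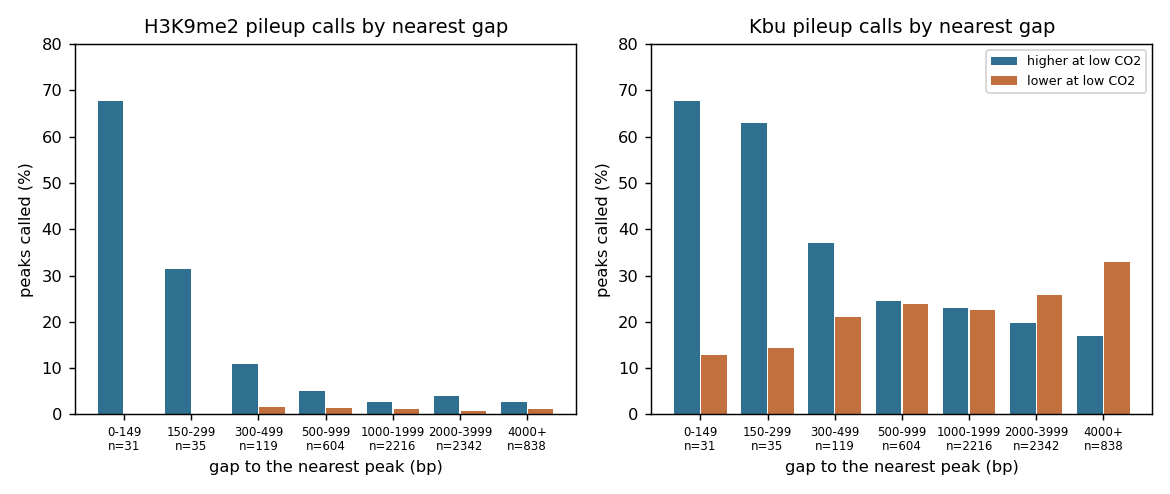
Share of peaks (vertical axis, percent) called higher (blue) or lower (orange) at low CO2 on the scaled pileup of H3K9me2 (left) and Kbu (right), by the gap to the nearest peak on the same chromosome (horizontal axis, bp, with the number of peaks n). H3K9me2 gains drop from 67.7% under 150 bp to 2.74% at 4000 bp or more, and Kbu gains from 67.7% to 16.9%.

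Among the pairs nearest to the boundary, just inside it are the pair peak348 and peak349 (292 bp), the pair peak2966 and peak2967 (292 bp), and peak3450 (chromosome 24, 548795 to 549419) with peak3451 (549713 to 551212, 294 bp). Their mean Kbu levels at high CO2 were 2.31 and 1.42, 3.47 and 0.97, and 2.37 and 2.21. Just outside are peak102 (chromosome 1, 521618 to 522158) with peak103 (522463 to 523276, 305 bp), peak1287 (chromosome 14, 75196 to 75875) with peak1288 (76180 to 76731, 305 bp) and peak5821 (chromosome 8, 778048 to 779154) with peak5822 (779460 to 780716, 306 bp), at 0.90 and 3.54, 2.47 and 2.11, and 5.48 and 2.33.

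In each of the 4 groups of 3 peaks the middle peak was the poorest in Kbu at high CO2. The share for other sets of 3 consecutive peaks was not counted, so this describes these 4 groups only. In the group of peak716 (chromosome 11, 691042 to 691677), peak717 (691780 to 692473) and peak718 (692575 to 693358), Kbu at high CO2 was 4.62 ± 0.30, 0.99 ± 0.082 and 4.37 ± 0.047 (SD, n = 2 each). At low CO2 it was 3.52 ± 0.053, 2.06 ± 0.14 and 2.51 ± 0.17. H3K9me2 was 1.51 ± 0.19, 1.71 ± 0.40 and 1.66 ± 0.40 at high CO2, against 1.88 ± 0.14, 3.18 ± 0.043 and 1.85 ± 0.17 at low CO2. The middle peak gained both marks (limma adjusted p = 0.00026 for H3K9me2 and 4.1e-06 for Kbu), and the H3K9me2 of its neighbours was not called (0.80 and 0.97).

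The group of peak2966 (chromosome 21, 293924 to 295073), peak2967 (295365 to 296006) and peak2968 (296155 to 296874) showed the same form. Kbu went from 3.47 ± 0.15, 0.97 ± 0.014 and 3.19 ± 0.094 at high CO2 to 1.44 ± 0.031, 1.86 ± 0.21 and 1.88 ± 0.19 at low CO2, so the dip in the middle was gone. Relative to the bulk, peak2966 and peak2968 fell in Kbu by 0.74 and 0.26 and peak2967 rose by 1.38 (limma adjusted p = 7.9e-05, 0.033 and 1.5e-05). H3K9me2 at peak2967 went from 1.70 and 1.29 to 3.21 in both low-CO2 libraries, while peak2966 and peak2968 reached 2.02 ± 0.033 and 1.86 ± 0.24 and were not called.

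Peak3185 (chromosome 22, 549599 to 550202) lies 254 bp after peak3184 (548953 to 549345) and 48 bp before peak3186 (550250 to 551086). All 3 rose in Kbu relative to the bulk, by 0.85, 1.15 and 0.46, and H3K9me2 at the middle peak went from 1.24 and 1.44 to 3.56 and 3.73. In the fourth group, named as the last of its kind, Kbu at peak3962 (chromosome 29, 106279 to 106644) went from 0.95 and 1.02 to 1.65 and 1.69, while peak3963 (106925 to 107576) went from 2.71 and 2.99 to 1.21 and 1.42. H3K9me2 at peak3961 (104506 to 106075), the first of this group, rose from 1.40 and 2.04 to 3.17 and 2.82, so here the gain was not larger in the middle. Peak3961 with peak3962, and peak717 with peak718, were the pairs with the highest smaller H3K9me2 level at high CO2, a level below 2 times background in the mean at each of these peaks.

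**Figure D5:**
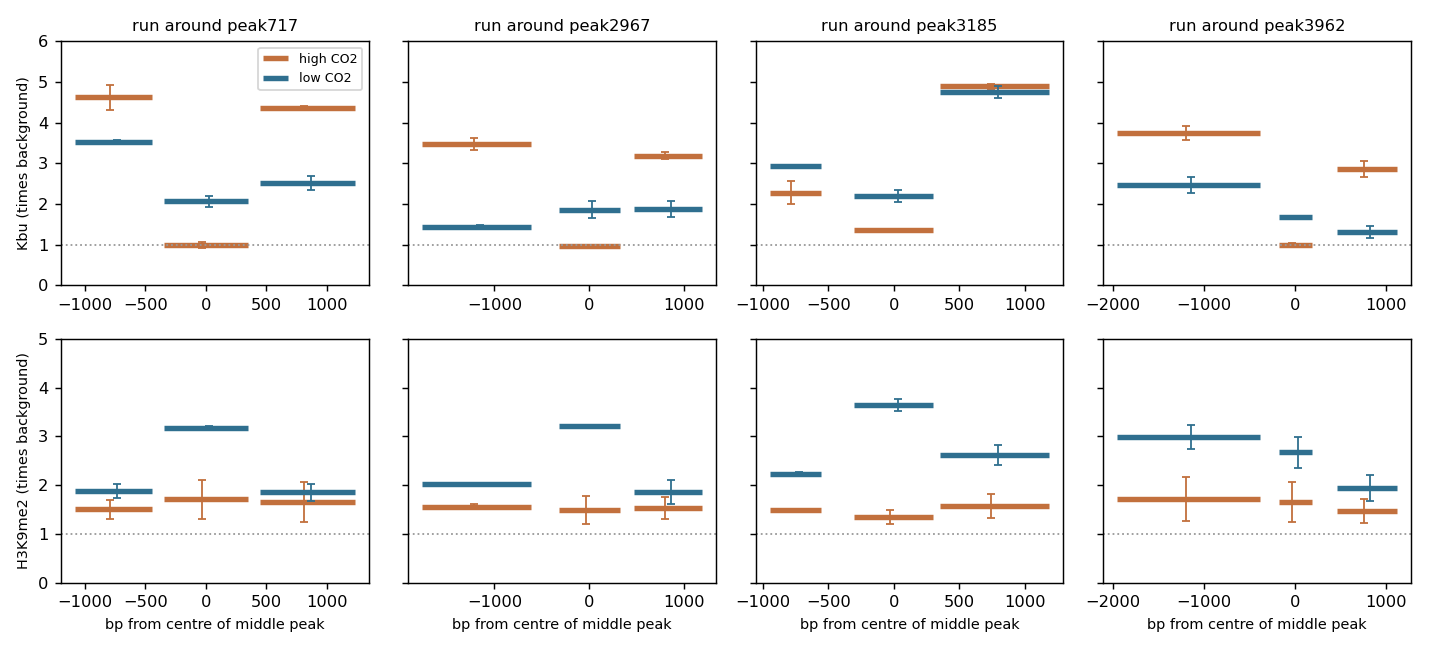
Mean level (vertical axis, times genome background) of Kbu (top) and H3K9me2 (bottom) in the 4 groups of 3 closely spaced peaks, against the distance from the centre of the middle peak (horizontal axis, bp). Each thick bar spans 1 peak at high CO2 (orange) or low CO2 (blue), error bars are the SD of 2 libraries, and the dotted line marks the background. Kbu at high CO2 dips at the middle peak in all 4 groups, to between 0.97 and 1.37, and rises there at low CO2.

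In pileup over genome background, a pair could also be high in Kbu on both sides at low CO2. Peak5455 (chromosome 7, 388502 to 388999) and peak5456 (389227 to 390336) had the highest smaller Kbu level there. Peak5455 went from 1.12 and 1.19 to 3.57 and 3.53, and peak5456 from 4.40 and 4.62 to 4.95 and 5.32. Relative to the bulk, the log2 changes were 2.06 and 0.68. H3K9me2 was called at peak5456, the side rich in Kbu, from 1.24 and 1.29 to 3.21 and 3.64 (limma adjusted p = 2.7e-12), and not at peak5455 (limma adjusted p = 0.26). The pair is 1 of the 2 with a called shift of H3K9me2 balance towards the Kbu-rich peak. At low CO2 the mean control at peak5456 was 7.46 times background (Kbu columns), above the Kbu level there. On the authors' ratio to control, peak5456 was called in neither mark (limma adjusted p = 0.88 for Kbu and 0.078 for H3K9me2). Peak5455 was called higher in both marks on that ratio, which is divided by a factor of the library. Its mean H3K9me2 went from 1.53 to 2.20 times background, while the control there went from 1.20 to 2.44. Its mean Kbu went from 1.16 to 3.55, and the control of the Kbu columns from 1.29 to 2.43.

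The authors' normalised value is a ratio to a control, and the control differed between closely spaced and other peaks. Over its lowest value, the median control at low CO2 was 2.44 ± 0.018 at the 66 peaks and 3.53 ± 0.012 at the others, and at high CO2 it was 1.37 ± 0.038 and 1.25 ± 0.025 (H3K9me2 columns, SD, n = 2 each). Within close pairs the low-CO2 control was lower at the Kbu-poor peak in 33 of 35 pairs (94.3%, and 80.7% of all adjacent pairs), with medians of 1.76 and 3.46. On the ratio, 55 of the 66 peaks were higher in H3K9me2 (83.3%) and 0 lower, with 24.5% and 12.1% over all peaks (limma, adjusted p under 0.05, and 2 lower at an unadjusted p under 0.05). For Kbu 50 were higher (75.8%) and 5 lower, with 40% and 30.4% over all peaks. The ratio is divided by a factor of the library, so these calls do not give the change of pileup over control itself. Without that factor, median pileup over control at the 66 peaks went from 1.05 at high to 0.85 at low CO2 for H3K9me2, and from 1.65 to 0.99 for Kbu. At the other peaks it went from 1.11 to 0.45 and from 2.84 to 0.73. The same direction on ratio and pileup was found at 29 H3K9me2 gains, 41 Kbu gains and 3 Kbu losses, and none was opposite. The part of the control in the ratio counts was not tested, and the pileup counts hold no control.

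In the authors' deposited table, 36 of the 66 peaks had a lower H3K9me2 value at high than at low CO2 at an unadjusted p under 0.05 (54.5%, and 7.73% of all peaks), and 0 a higher one. For Kbu the authors' deposited table has 39 lower at high CO2 (59.1%, and 15.6% of all peaks) and 1 higher (1.52%, and 2.93% of all peaks).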

How the data were processed

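Per the labels' protocols, single-end Illumina ChIP-seq libraries were made from N. oceanica IMET1, and MACS2, deepTools, Picard, BWA and Trim Galore appear, without settings, in the submitters' processing notes. Per the file headers, the authors deposited for each library a ChIP pileup signal, a control background signal (lambda), a normalised signal, and their own comparison as a log2 fold change and p-values. In 100% of peaks that normalised value is 10 times the ratio of pileup to control, cut to a whole number and divided by a factor of the library. Pileups were whole multiples (within 0.05) of 1 step per library, taken as 1 read. They are reads at 1 position, not counts per peak, so no count test was run, and library depth is unknown.

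From these, log2 of the pileup (scaled per mark to 1 geometric mean) or of the deposited ratio, plus a pseudocount of 1, was fitted over all 6185 peaks with limma 3.58.1 (mean trend, R 4.3.3), low against high CO2, two-sided. The pair balance was fitted over all 6155 adjacent pairs with the trend on the pair's mean level. With a pseudocount, small changes at low values are understated. The fits were tested on simulated data. The ratio fit had infinite prior degrees of freedom, so all peaks of a level share 1 spread.

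The peaks, tests and classes were chosen with earlier results of these data known. Named pairs are those in which both peaks passed in 1 direction with no overlap between the libraries of the CO2 levels (the 4 with the largest smaller change), the 3 largest called changes of balance per mark, the 2 highest smaller levels per mark and CO2 level, the 2 smallest gaps, 3 groups of 3, and 3 pairs on each side of 300 bp. No genome or gene annotation of the nuclear chromosomes was used here, so no sequence or gene is given. Tables and plots were made with pandas 2.3.3, Matplotlib 3.10.9, SciPy 1.17.1, NumPy 2.4.6 and Python 3.11.15.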

Additional observations from a re-analysis of the deposited data

How the results depend on the processing

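Counts below are of closely spaced peaks, higher or lower at low CO2. Of 164 alternative values, 114 kept their direction and were classed as the same in size. That class is loose: it holds the Kbu gains on the ratio, which went from 50 to 34 without the lowest 25% of peaks. With a gap under 150 bp, fewer peaks qualify, and the pileup counts were 21 higher (H3K9me2), 21 higher and 4 lower (Kbu). The ratio counts were 26 higher (H3K9me2), 23 higher and 2 lower (Kbu), and 4 and 15 pair balances changed. With a gap under 500 bp, pileup counts were 2 lower (H3K9me2), 87 higher and 34 lower (Kbu), ratio counts 104 higher and 6 lower (H3K9me2), 114 higher and 29 lower (Kbu), and 62 Kbu balances changed. Without the lowest 25% of peaks, which leaves few of the Kbu-poor ones, Kbu counts were 15 higher and 3 lower on the pileup, 2 lower on the ratio, and 3 balances. With at least a 1.5-fold change, Kbu losses were 3 on the pileup and 2 on the ratio. Over genome background, Kbu losses were 25. Scaled to library totals, ratio losses were 2 (H3K9me2) and 9 (Kbu). On the ratio to control, chosen after seeing the data, 29 H3K9me2 balances changed. The cause was not tested for these.

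With 1 library left out, pileup counts were 22 to 28 higher and 0 lower for H3K9me2, and 39 to 48 higher and 3 to 10 lower for Kbu (3 without high-CO2 replicate 2, 5 without replicate 1). Ratio counts were 42 to 51 higher and 0 to 1 lower for H3K9me2, and 43 to 52 and 2 to 7 for Kbu. Changed balances were 0 to 4 for H3K9me2 and 27 to 34 for Kbu. The level differences from other peaks were 0.03 to 0.10 and 0.44 to 0.59 for H3K9me2 at high and low CO2, and -0.74 and -0.24 to -0.22 for Kbu.

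Level differences on the log2 scale were also read with other settings. For H3K9me2 at low CO2 they were 0.70 (gap under 150 bp), 0.22 (under 500 bp) and 0.92 (over the control at the peak), and at high CO2 -0.077 over that control. For Kbu at high CO2 they were -0.75, -0.47 and -0.79 in the same order, -0.39 for peaks of 500 to 1000 bp and -0.33 for peaks over 1000 bp. For Kbu at low CO2 they were -0.20, -0.19 and 0.43, then 0.020 and -0.16, so this difference changed sign in peaks of 500 to 1000 bp and over the control.

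With the replicate number as a block, pileup counts were 33 higher (H3K9me2), 43 higher and 9 lower (Kbu), ratio counts 57 higher and 1 lower, and 50 and 5, and balances 17 and 32. Same-numbered libraries share only a number here: their deviations correlated at 0.04 (H3K9me2) and 0.11 (Kbu).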
